A study of Drosophila melanogaster with 9 samples.

Results

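The glycolytic enzyme genes analysed here were the 10 Drosophila melanogaster genes Hex-A, Pfk, Ald1, Tpi, Gapdh1, Gapdh2, Pgk, Pglym78, Eno and PyK, found by their FlyBase symbols among the 23932 features of the gene table. All 10 were present, and all 10 passed the filter on low counts that 13076 features passed. RNA was sequenced from adult heads of Wild type Dahomey flies without treatment, 0 to 5 days old, as 80S monosomes, polysomes and total RNA, in biological triplicate (n = 3 each). For 80S monosomes the sucrose gradient fractions that hold single ribosomes were combined, for polysomes those that hold mRNAs with several ribosomes. Total RNA came from lysate kept back before the gradient. All groups share the genotype and tissue, and cycloheximide, a drug that halts elongating ribosomes, was in the buffers of the gradient preparation. A whole head holds brain, retina, fat body and muscle, so that for a level in these bulk libraries the number of cells of a type and the RNA per cell cannot be told apart; the fractions and total RNA of a replicate come from one lysate. The comparisons ask whether the mRNAs of one pathway were spread evenly over 80S monosomes and polysomes, and how each ribosomal fraction compared with total RNA.

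Glycolysis turns glucose into pyruvate in the cytosol. Its first stretch spends ATP: hexokinase traps glucose as a phosphate, phosphofructokinase commits the sugar to the pathway, aldolase cleaves it and triose phosphate isomerase evens out the products. The second stretch earns ATP and NADH through glyceraldehyde-3-phosphate dehydrogenase, phosphoglycerate kinase, phosphoglycerate mutase, enolase and pyruvate kinase. Hexokinase, phosphofructokinase and pyruvate kinase catalyse the essentially irreversible steps. In the fly head glial cells are known for strong glycolysis, and muscle is rich in these enzymes in adult flies.

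Library totals ran from 13555484 counts in polysome replicate 1 to 44096558 in 80S monosome replicate 3. Ribosomal RNA took 3.98% of the counts on average in 80S monosomes, 1.17% in polysomes and 0.589% in total RNA. Levels are CPM, the counts of a gene relative to the library's total after TMM scaling between libraries, and fold changes are on the log2 scale. A call is an adjusted p under 0.01 by edgeR's quasi-likelihood test over all features. The replicate numbers pair the libraries, and values with the replicate as a block are given for the 10 enzymes where they change a call, and as counts of calls for the other lists.

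The 10 mRNAs together made up less of the ribosomal fractions than of total RNA. Their summed level was 4028, 4046 and 4048 CPM in the 80S monosome libraries, 3609, 4400 and 4116 CPM in the polysome libraries and 4925, 4987 and 4955 CPM in the total RNA libraries. No library of either ribosomal fraction reached the lowest total RNA library, while the polysome libraries lay on both sides of the 80S monosome libraries. As a share of all counts the genes took 0.399% ± 0.0147 in 80S monosomes, 0.406% ± 0.0549 in polysomes and 0.500% ± 0.00957 in total RNA (SD, n = 3). Polysome replicate 1, the shallowest library, had the lowest sum of the 9. The genes did not weigh alike in these sums. Ald1 differed most, with means of 1124 CPM in 80S monosomes, 1158 in polysomes and 1581 in total RNA. Hex-A (508, 510 and 480 CPM) and Pfk (181, 181 and 178 CPM) did not have a higher mean in total RNA, and every other gene did.

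**Figure D1:**
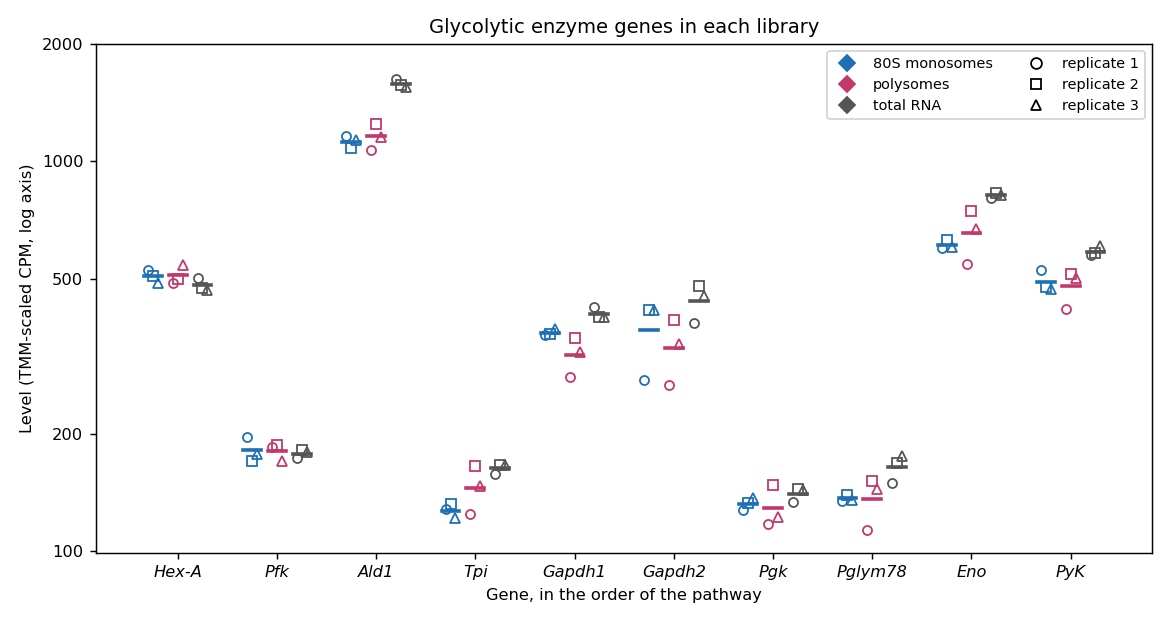
Level of each gene in TMM-scaled CPM (log axis) in the 9 libraries, with the fraction in colour, the replicate as the symbol and the mean of 3 libraries as a bar. Ald1 stands highest, at 1547 to 1624 CPM in total RNA against 1072 to 1245 CPM in polysomes, while the 3 fractions of Hex-A and Pfk overlap.

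Compared per kilobase of annotated exon, levels in total RNA were highest for Ald1, at 415 ± 10.4 CPM per kb (SD, n = 3). The Gapdh pair followed, with 304 ± 33.2 CPM per kb for Gapdh2 and 274 ± 9.63 for Gapdh1. PyK stood at 262 ± 7.23 CPM per kb and Eno at 220 ± 3.51. Lower in the order were Pglym78 at 145 ± 11.5, Hex-A at 116 ± 4.41, Tpi at 105 ± 3.30, Pgk at 66.5 ± 2.65 and Pfk at 40.6 ± 1.0 CPM per kb. Gapdh2 and Gapdh1 overlapped in their libraries, as did Gapdh1 and PyK, and every other pair of neighbours in the order was apart in all 3 total RNA libraries. Over the 9 libraries Ald1 ranked 79 and Pfk 1298 per kilobase among the 10411 nuclear protein-coding genes tested. The exon length counts the untranslated ends of every annotated isoform, so that genes with long alternative ends, such as Ald1, Eno and Hex-A, are set low on this scale.

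None of the 10 genes was called between polysomes and 80S monosomes in either direction, where 7.87% of all features were called higher and 4.31% lower in polysomes. The log2 fold changes of polysomes over 80S monosomes ran from -0.18 for Gapdh1 to 0.20 for Tpi. Their median was -0.0021, beside -0.083 over all features tested and -0.12 over nuclear protein-coding genes (quartiles -0.30 and 0.092). None reached an unadjusted p under 0.05, and both DESeq2 and the fit with the replicate block called 0 of the 10, where DESeq2 called 17.9% of features in either direction and the block 12.8% higher and 14.2% lower. The 95% intervals of the 10 differences all lay between -0.54 and 0.42 on the log2 scale. The pairs of libraries did not move alike, since all 10 genes were lower in polysomes in replicate 1, but 3 of 10 in replicate 2 and 4 of 10 in replicate 3.

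Gapdh1 alone had polysome and 80S monosome libraries that did not overlap, a pattern that 20.6% of all features showed in the same direction. Its levels were 357, 361 and 370 CPM in 80S monosomes and 280, 353 and 325 CPM in polysomes, a log2 fold change of -0.18 (SE 0.096, edgeR adjusted p = 0.19). Tpi was the gene with the highest value in polysomes relative to 80S monosomes, at 0.20 (SE 0.10, edgeR adjusted p = 0.19).

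Against total RNA the enzymes fell into those near 0 and those below it. In both ribosomal fractions 8 of the 10 genes had a log2 fold change below 0, beside 52.1% of all features for 80S monosomes and 53.9% for polysomes. The median of the 10 was -0.25 for 80S monosomes over total RNA and -0.28 for polysomes over total RNA, beside -0.022 and -0.050 over all features. Nuclear protein-coding genes had medians of -0.015 (quartiles -0.29 and 0.24) and -0.11 (quartiles -0.41 and 0.21). Both medians of the 10 thus lay between the quartiles of these genes. Only Ald1 was called lower, in each of the comparisons, so 1 of 10 genes passed where 8.95% of features were called lower in 80S monosomes and 12.2% in polysomes, a share near the background. With the replicate block 5 genes were lower in 80S monosomes (Ald1, Tpi, Gapdh2, Pglym78 and Eno) where 19.2% of features were, and 6 were lower in polysomes (Ald1, Gapdh1, Gapdh2, Pglym78, Eno and PyK) where 23.4% were. DESeq2 called 3 lower in 80S monosomes (Ald1, Tpi and Eno; 13.6% of features) and 2 in polysomes (Ald1 and Gapdh1; 15.1%). No gene was called higher by edgeR, which called 6.68% of features higher in 80S monosomes and 10.4% in polysomes, or 15.3% and 17.9% with the block. Both comparisons use the same total RNA libraries, so their values for a gene are not independent of each other.

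**Figure D2:**
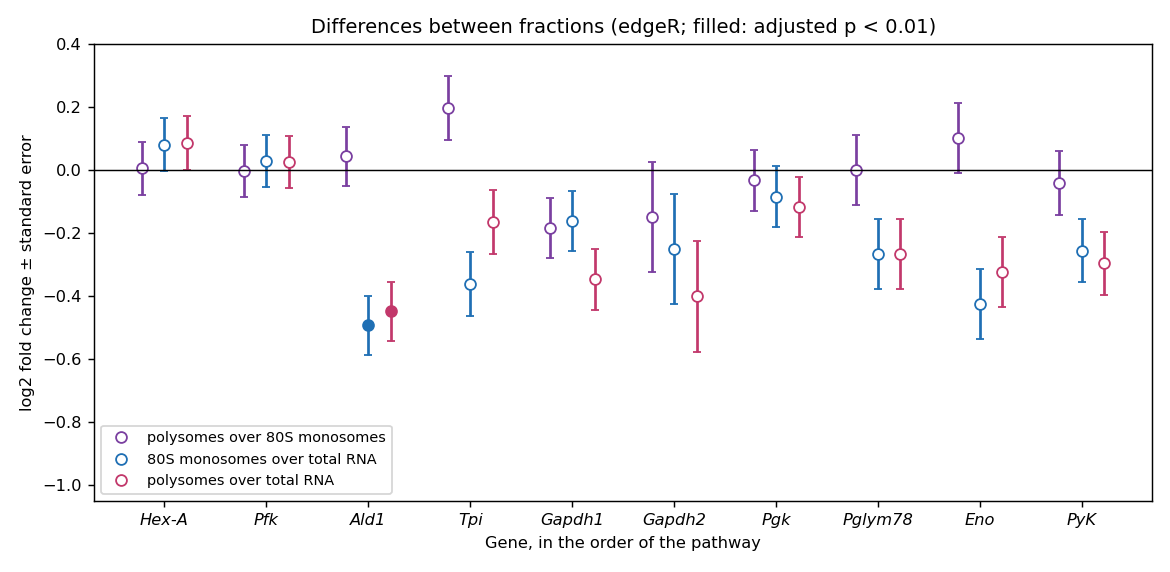
log2 fold change with its standard error for each gene, in the order of the pathway, for the 3 comparisons, with filled points for an edgeR adjusted p under 0.01. Ald1 is the sole filled gene, at -0.49 and -0.45 against total RNA, and Hex-A and Pfk are the genes above 0 in both comparisons with total RNA.

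The hexokinase and phosphofructokinase genes had libraries that overlapped between all 3 fractions. Hex-A (FBgn0001186, chrX:9585675-9589813, plus strand, BDGP6), which encodes a hexokinase, had 527, 508 and 489 CPM in 80S monosomes, 488, 499 and 542 CPM in polysomes and 501, 472 and 468 CPM in total RNA. The log2 fold change over total RNA was 0.080 (SE 0.085, edgeR adjusted p = 0.51; 95% interval -0.11 to 0.27) for 80S monosomes, higher in 3 of 3 pairs, and 0.085 (SE 0.085, edgeR adjusted p = 0.45) for polysomes. Pfk (FBgn0003071, chr2R:10109740-10117457, plus strand), the phosphofructokinase gene, had 196, 171 and 178 CPM in 80S monosomes, 185, 187 and 171 CPM in polysomes and 173, 181 and 179 CPM in total RNA. Its log2 fold changes over total RNA were 0.029 (SE 0.083) and 0.025 (SE 0.083), with 95% intervals from -0.15 to 0.21 and from -0.16 to 0.21. By their longest annotated form these genes also have the longest coding sequences of the 10, of up to 541 codons for Hex-A and up to 950 for Pfk, the others ending at 533 or below. Only Hex-A-RA has 541 codons. Hex-A-RB, and Hex-A-RC with 55.6% to 59.4% of Hex-A counts in the fraction means, have 448. That is below the 512 and 533 codons of the PyK transcripts, and PyK gave -0.26 and -0.30 for 80S monosomes and polysomes over total RNA. Hex-A-RA and Hex-A-RB span the same positions and had the same share of counts in every library. The counts therefore cannot show which coding length of Hex-A was in use. Across the 10 genes, which share their libraries, the log2 fold change of polysomes over total RNA had a Pearson r of 0.62 and a Spearman rho of 0.55 with the longest annotated coding length, 80S monosomes over total RNA 0.53 and 0.40, and polysomes over 80S monosomes 0.088 and 0.18.

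Aldolase was the gene with the lowest value against total RNA in either fraction. Ald1 (FBgn0000064, chr3R:26254069-26261591, minus strand) had 1158, 1082 and 1131 CPM in 80S monosomes, 1072, 1245 and 1157 CPM in polysomes and 1624, 1571 and 1547 CPM in total RNA. Every total RNA library was above every ribosomal library, and the ribosomal fractions overlapped each other. The log2 fold change was -0.49 (SE 0.093, edgeR adjusted p = 0.00294) for 80S monosomes and -0.45 (SE 0.093, edgeR adjusted p = 0.00337) for polysomes over total RNA, lower in 3 of 3 pairs each time. Without 80S monosome replicate 2 or 3, or without any one of the total RNA libraries, the adjusted p for 80S monosomes rose to between 0.0111 and 0.0167, and without polysome replicate 1 or 3 or any one total RNA library that for polysomes rose to between 0.0184 and 0.0304, so the call was lost there while the direction held. The call in polysomes was also lost with relative log expression size factors (edgeR adjusted p = 0.0103) and with scaling on nuclear protein-coding genes alone (edgeR adjusted p = 0.0110). With the block the adjusted p values were 4.051e-05 and 8.469e-05.

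Tpi (FBgn0086355, chr3R:30132981-30134599, minus strand), which encodes triose phosphate isomerase, is the member whose counts were whole in all 9 libraries, so that no split read showed in them. It had 128, 132 and 121 CPM in 80S monosomes, 125, 165 and 146 CPM in polysomes and 157, 166 and 166 CPM in total RNA. The 80S monosome libraries lay below all total RNA libraries, and the polysome libraries reached into both. The log2 fold change of 80S monosomes over total RNA was -0.36 (SE 0.10, edgeR adjusted p = 0.0198), with an adjusted p of 0.00055 with the block, and that of polysomes was -0.17 (SE 0.10, edgeR adjusted p = 0.22), or -0.047 without polysome replicate 1 and -0.28 without polysome replicate 2.

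Among the enzymes of the second stretch, Gapdh1, enolase and pyruvate kinase had libraries of both ribosomal fractions below all total RNA libraries. Eno (FBgn0000579, chr2L:1724768-1729636, minus strand) had 598, 628 and 603 CPM in 80S monosomes, 546, 745 and 669 CPM in polysomes and 803, 829 and 821 CPM in total RNA. Its log2 fold change was -0.42 (SE 0.11, edgeR adjusted p = 0.0147, with the block 0.00028) for 80S monosomes and -0.32 (SE 0.11, edgeR adjusted p = 0.0392, with the block 0.0022) for polysomes. PyK (FBgn0267385, chr3R:22367536-22372746, plus strand), the pyruvate kinase gene of the last step, had 528, 477 and 470 CPM in 80S monosomes, 417, 515 and 500 CPM in polysomes and 575, 580 and 605 CPM in total RNA. It gave -0.26 (SE 0.10, edgeR adjusted p = 0.0756) in 80S monosomes and -0.30 (SE 0.10, edgeR adjusted p = 0.0366, with the block 0.0056) in polysomes. Libraries that all lie below total RNA were common, at 25.6% of features for 80S monosomes and 28.8% for polysomes, beside 6 and 4 of the 10 genes.

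Phosphoglycerate kinase and mutase come in the middle of that stretch. Pgk (FBgn0250906, chr2L:2746880-2753068, minus strand), the kinase that makes the first ATP of the payoff, had 128, 132 and 137 CPM in 80S monosomes, 117, 148 and 123 CPM in polysomes and 134, 144 and 143 CPM in total RNA. Its groups overlapped, with log2 fold changes over total RNA of -0.085 (SE 0.096) and -0.12 (SE 0.096), neither called with or without the block. Pglym78 (FBgn0014869, chr3R:29148248-29149901, plus strand), which encodes the mutase, had 135, 140 and 136 CPM in 80S monosomes, 113, 152 and 144 CPM in polysomes and 150, 168 and 175 CPM in total RNA. Its log2 fold change was -0.27 (SE 0.11) in each fraction, with edgeR adjusted p values of 0.0915 and 0.0778, or 0.0072 and 0.0052 with the block. Pgk, Pglym78, Eno and Ald1 overlap exons of Cwc25, eIF2D, Rrp40 and asRNA:CR44321 on the opposite strand, which the strand-specific counting keeps apart.

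The Gapdh genes encode the same enzyme, and their counts are uncertain as far as the authors' counting split reads between them, which was not analysed here; counts were not whole in 9 of 9 libraries for Gapdh1 and in 7 of 9 for Gapdh2. Gapdh1 (FBgn0001091, chr2R:7791901-7793380, minus strand) had 423, 398 and 398 CPM in total RNA, above every 80S monosome and polysome library. Its log2 fold change over total RNA was -0.16 (SE 0.095, edgeR adjusted p = 0.22) in 80S monosomes and -0.35 (SE 0.096, edgeR adjusted p = 0.0145, with the block 0.0010) in polysomes. Gapdh2 (FBgn0001092, chrX:15868145-15869661, plus strand) had 274, 416 and 414 CPM in 80S monosomes, 266, 391 and 339 CPM in polysomes and 385, 478 and 453 CPM in total RNA, with replicate 1 the lowest of each group. Its log2 fold change over total RNA was -0.25 (SE 0.18, edgeR adjusted p = 0.31) in 80S monosomes and -0.40 (SE 0.18, edgeR adjusted p = 0.0930) in polysomes, and 0.0078 and 0.00019 were the adjusted p values with the block. With a library left out the value for 80S monosomes ran from -0.35 to -0.077, the latter without 80S monosome replicate 1.

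Replicate 1 differed from the others in the balance of the pair. Gapdh2 over Gapdh1 was 0.767 in 80S monosomes, 0.951 in polysomes and 0.911 in total RNA of replicate 1. It was 1.15, 1.11 and 1.20 in replicate 2 and 1.12, 1.04 and 1.14 in replicate 3. Gapdh1 was thus the higher gene in all 3 libraries of replicate 1 and Gapdh2 in all 6 others. Replicate 1 held the shallowest 80S monosome, polysome and total RNA library. In total RNA the depths were close, at 30220230, 31849399 and 31015134 counts in replicates 1, 2 and 3. The part of depth in this ratio was not tested.

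**Figure D3:**
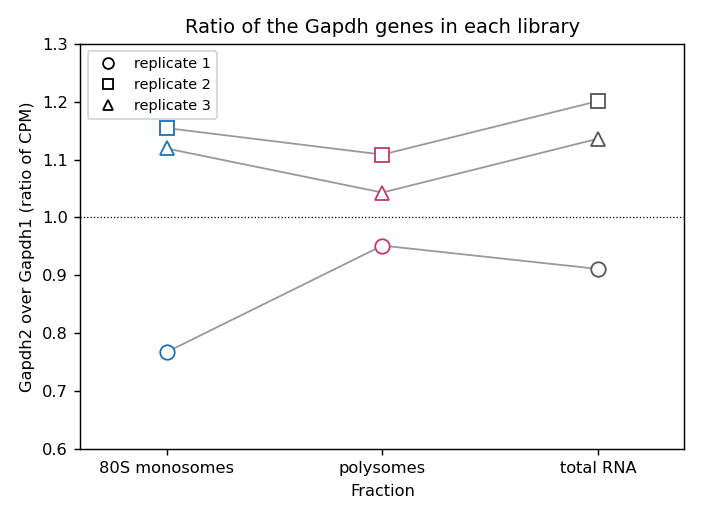
Ratio of Gapdh2 to Gapdh1 in CPM for the 9 libraries, with lines joining the libraries of one replicate number and a dotted line at equal levels. Replicate 1 runs from 0.767 to 0.951, below the dotted line, and replicates 2 and 3 from 1.04 to 1.20, above it.

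The Ald1 gene has 10 annotated transcripts with alternative starts, coding ends and 3′ untranslated ends. Ald1-RB and Ald1-RM reach farthest downstream, to positions 26254069 and 26254603 on the minus strand, beyond the end of Ald1-RC, Ald1-RD and Ald1-RK at 26255204, with which they share a last coding exon and a length of 361 codons. The remaining 5 transcripts end at 26255966 after another last coding exon and have 363 codons. The counting split reads over shared exons between transcripts, so that differences between them are understated. Testing transcript use over 6108 genes with edgeR's diffSpliceDGE, Ald1 was called for 80S monosomes over total RNA (adjusted p = 0.00172), where 0.327% of genes were called, and the other 9 enzymes were not called, each with an adjusted p of 1. Relative to the gene, Ald1-RB and Ald1-RM were not past the threshold in that test (diffSpliceDGE adjusted p = 0.12 and 0.087). The other Ald1 transcripts were, on the higher side (diffSpliceDGE adjusted p = 0.00071 to 0.0097). For polysomes over total RNA the adjusted p of Ald1 was 0.0231 in the fit without a block, which called 0.246% of genes, and 7.298e-06 with it. Between polysomes and 80S monosomes it was 1, with 0.262% of genes called. The call in 80S monosomes was lost without 80S monosome replicate 2 or 3 or any one total RNA library, at 0.0111 to 0.0903.

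The difference in level lay in the counts given to the transcripts with the long 3′ end. After the transcript counts were seen, Ald1-RB and Ald1-RM were summed, giving 482, 511 and 534 CPM in 80S monosomes, 474, 624 and 578 CPM in polysomes and 1072, 1014 and 967 CPM in total RNA. The other 8 transcripts together had 676, 571 and 597 CPM in 80S monosomes, 598, 622 and 579 CPM in polysomes and 552, 558 and 580 CPM in total RNA. The long ends thus stood far higher in total RNA than in any ribosomal library, and the other transcripts did not stand higher in total RNA. The long ends were 45.4% ± 3.23 of Ald1 counts in 80S monosomes, 48.1% ± 3.34 in polysomes and 64.3% ± 1.75 in total RNA (SD, n = 3). Counts given to Ald1-RB beyond those of Ald1-RM, which come from the last 534 bases of the longest end, were 123 ± 7.24, 136 ± 18.1 and 244 ± 25.8 CPM. Reads over shared exons were split, so what sets these transcripts apart is reads over the long end. Fewer transcripts of the long form and fewer reads over their 3′ end cannot be told apart in these counts.

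An edgeR test of the whole transcript table was added with these values known. Ald1-RB had a log2 fold change of -1.09 (SE 0.13, adjusted p = 0.00040) in 80S monosomes and -0.87 (SE 0.13, adjusted p = 0.00059) in polysomes over total RNA, and Ald1-RM had -1.09 (SE 0.12, adjusted p = 0.00035) and -0.88 (SE 0.12, adjusted p = 0.00047). Of all transcripts, 12.4% and 12.8% were called lower in these comparisons. The other 8 Ald1 transcripts lay between -0.017 and 0.11, none of them called. Ald1-RB and Ald1-RM stayed past the threshold with any one library left out, at adjusted p values of up to 0.0032. Eno-RA, Eno-RB, Eno-RC, Eno-RD and Eno-RE were also called lower in 80S monosomes over total RNA (-0.57 to -0.52, edgeR adjusted p = 0.0045 to 0.0089). Tpi-RC was called lower there as well (-0.47, edgeR adjusted p = 0.0081). The transcript table was scaled by its own factors and the sums above by those of the gene table, so their values are not on one scale. Ald1-RB and Ald1-RM share most of their length and so most of their reads, and are not independent of each other.

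**Figure D4:**
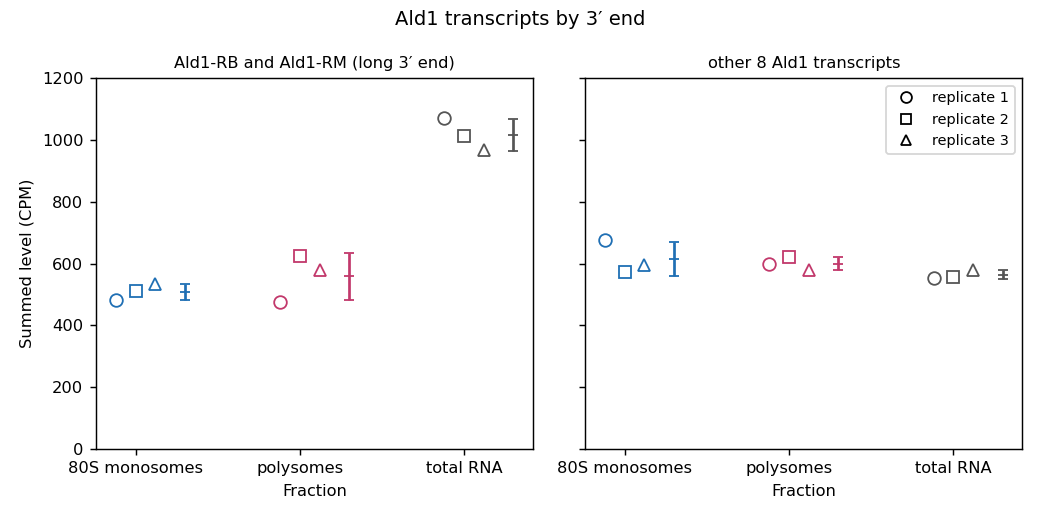
Summed level (CPM) of the Ald1 transcripts with the long 3′ end (left) and of the other 8 (right) in each library, with mean ± SD of 3 libraries beside the points. The long ends are at 967 to 1072 CPM in total RNA and 474 to 624 CPM in the ribosomal libraries, while the other transcripts range from 552 to 676 CPM in all 9.

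Hex-A and Pfk also have a transcript with a longer 3′ end. Hex-A-RC starts farther upstream than the other Hex-A transcripts as well, and Pfk-RB shares its start with Pfk-RC alone, so that their counts are not of the 3′ end alone. Hex-A-RC made up 55.6% ± 1.88 of Hex-A counts in 80S monosomes, 55.7% ± 0.625 in polysomes and 59.4% ± 0.909 in total RNA. Pfk-RB made up 29.8% ± 0.816, 28.6% ± 1.07 and 34.6% ± 0.842 of Pfk counts in the same order. Neither gene was called in the test of transcript use (edgeR adjusted p = 1 for each, and with the block 0.38 and 0.12 for Pfk).

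The step that has no member among the 10 is glucose-6-phosphate isomerase, encoded by Pgi, which differed from its neighbours in the pathway. Pgi stood at 183 to 207 CPM in 80S monosomes, 120 to 155.9 CPM in polysomes and 215 to 226 CPM in total RNA, without overlap between any of the fractions. It fell in polysomes relative to 80S monosomes by 0.53 on the log2 scale (SE 0.10, edgeR adjusted p = 0.00343) and relative to total RNA by 0.69 (SE 0.10, edgeR adjusted p = 0.00055), while 80S monosomes over total RNA gave -0.16 (SE 0.10, edgeR adjusted p = 0.26). The first call was lost in 7 of 17 alternatives (adjusted p 1.932e-05 to 0.0335) and the second in none. Of the 13 genes in the list of Pgi and paralogs of the enzymes, such as Hex-t1, Ald2 and Pglym87, 9 had too few counts to be tested, between 3.25 and 42 in all 9 libraries together. Of the 4 tested, Pgi was the one called without the block. With it CG7059 was lower in polysomes than in 80S monosomes as well (edgeR adjusted p = 0.00074), and CG7069 was higher than total RNA in 80S monosomes and polysomes (edgeR adjusted p = 0.00087 and 0.0080).

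Genes that feed glycolysis and use its products were compared as lists. Over all features, 7.87% were called higher and 4.31% lower in polysomes than in 80S monosomes, or 12.8% and 14.2% with the block. Against total RNA 6.68% were called higher and 8.95% lower in 80S monosomes, or 15.3% and 19.2% with the block. In polysomes 10.4% were higher and 12.2% lower than in total RNA, or 17.9% and 23.4% with the block. Of 10 genes for sugar entry and storage, Glut1, a glucose transporter gene, was the one called without the block, rising in polysomes to 399 to 539 CPM from 245 to 294 CPM in 80S monosomes and 242 to 268 CPM in total RNA. Its log2 fold change was 0.83 (SE 0.12, edgeR adjusted p = 0.00053) and 0.88 (SE 0.12, edgeR adjusted p = 0.00035), and the median of that list was -0.069 and -0.18. With the block 1 gene of that list was lower in polysomes than in 80S monosomes (Glyp), and against total RNA 2 were lower in 80S monosomes (Glys and UGP) and 3 in polysomes (Tret1-1, Glys and UGP). Out of 10 genes these counts are near the shares over all features. None of the 7 pentose phosphate pathway genes was called in any comparison, though the block called 3 lower for polysomes over total RNA and 1 higher for polysomes over 80S monosomes. Of 6 genes of gluconeogenesis and regulation, sima, which encodes the HIF-1 alpha homolog, rose in 80S monosomes over total RNA by 0.50 (SE 0.11, edgeR adjusted p = 0.00638), a call that 5 of 17 alternatives lost. With the block 2 genes of that list were higher in 80S monosomes and 1 in polysomes than in total RNA, and 1 (Pepck2) was lower in polysomes than in 80S monosomes.

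Downstream of pyruvate kinase, 3 of 11 genes for the fate of pyruvate and NADH fell in 80S monosomes against total RNA and 4 of 11 in polysomes, or 4 in each with the block, which also had 2 lower in polysomes than in 80S monosomes, and none rose. Over all features 8.95% and 12.2% were called lower in these comparisons with total RNA, or 19.2% and 23.4% with the block. The block called 14.2% of features lower in polysomes than in 80S monosomes. Mpc1, a subunit of the mitochondrial pyruvate carrier, fell from 97.8 to 106 CPM in total RNA to 39.6 to 54.4 CPM in 80S monosomes and 30.8 to 47.0 CPM in polysomes, log2 fold changes of -1.06 (SE 0.15, edgeR adjusted p = 0.00063) and -1.35 (SE 0.15, edgeR adjusted p = 0.00012). Pdha, a subunit of pyruvate dehydrogenase, fell by 0.56 and 0.66 on the log2 scale (edgeR adjusted p = 0.00740 and 0.00236). Gpdh1, the cytosolic glycerol-3-phosphate dehydrogenase that reoxidises NADH, fell by 0.50 and 0.47 (edgeR adjusted p = 0.00508 and 0.0049), and muc, another pyruvate dehydrogenase subunit, fell by 0.44 in polysomes (edgeR adjusted p = 0.00171). Ldh, the lactate dehydrogenase gene, was low, at 11.3 ± 0.949 CPM in 80S monosomes, 13.7 ± 0.496 in polysomes and 15.2 ± 1.04 in total RNA (SD, n = 3). Its log2 fold change of 80S monosomes over total RNA was -0.41 (SE 0.10, edgeR adjusted p = 0.0122, with the block 0.0010) and that of polysomes -0.15 (SE 0.11, edgeR adjusted p = 0.29). With a library left out, Mpc1 stayed past the threshold in every case, while Gpdh1 and Pdha did so in 3 of 9 cases in 80S monosomes. In polysomes Pdha did so in 5 of 9 cases and muc in 4 of 9.

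Of 15 citric acid cycle genes, 3 fell in 80S monosomes against total RNA and 4 in polysomes, or 6 and 9 with the block, which also had 4 lower in polysomes than in 80S monosomes, and none rose, where 8.95% and 12.2% of all features were lower, or 19.2% and 23.4% with the block. For polysomes over 80S monosomes 14.2% of all features were lower with the block. The subunits of NAD-dependent isocitrate dehydrogenase led the list. Idh3b gave -0.78 (SE 0.11, edgeR adjusted p = 0.00057) and -1.15 (SE 0.11, edgeR adjusted p = 4.203e-05), Idh3g gave -0.59 and -0.84 (edgeR adjusted p = 0.00112 and 0.00011), and Idh3a gave -0.74 in polysomes (edgeR adjusted p = 0.00031). Mdh2, a mitochondrial malate dehydrogenase, gave -0.56 in polysomes (edgeR adjusted p = 0.00135) and -0.43 in 80S monosomes (edgeR adjusted p = 0.00768), the latter a call that 7 of 17 alternatives lost. The medians of this list were -0.075 and -0.37, beside -0.25 and -0.28 for the glycolytic genes.

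**Figure D5:**
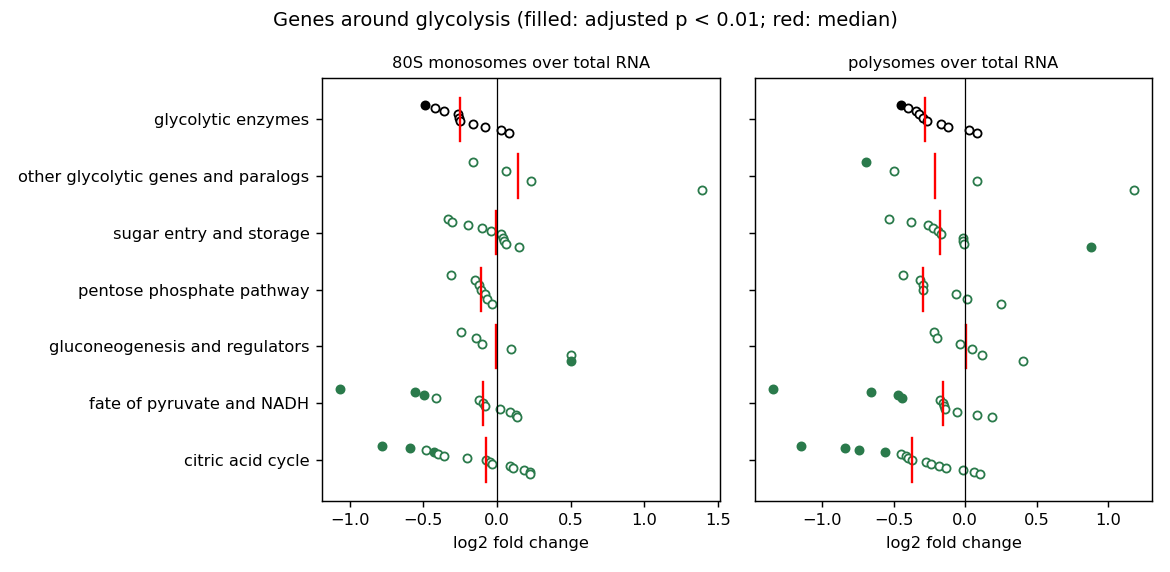
log2 fold change over total RNA of every tested gene of the lists, for 80S monosomes (left) and polysomes (right), with filled points for an edgeR adjusted p under 0.01 and a red line at each list's median. The glycolytic genes lie between -0.49 and 0.09 in both panels, the pyruvate genes reach -1.35 and Glut1 stands at 0.88 in polysomes.

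Over the 9 libraries, 8 of the 10 enzymes correlated with the mean of the other 9, with a Pearson r from 0.70 for Gapdh2 to 0.96 for Eno, while Hex-A had an r of -0.48 and Pfk of -0.23. The centred mean profile of the 10 was 0.11 to 0.17 in total RNA and -0.25 to 0.059 in the ribosomal libraries (log2). Genes lower in both fractions than in total RNA correlate with such a profile. The share of all genes with an r this high was not counted, so the values do not set the enzymes apart. Among 6153 other nuclear protein-coding genes that averaged 10 CPM or more, those most like the mean profile of the 10 were SdhC (r = 0.99), CG15093 (r = 0.99), Chchd2 (r = 0.98), Qsox1 (r = 0.97) and lwr (r = 0.97), with 9 libraries of 3 fractions behind each value. SdhC, a subunit of succinate dehydrogenase, had log2 fold changes of -0.48 and -0.45 over total RNA, close to those of Ald1.

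Markers of the cell types in a head, and of ovary and testis, moved between the same fractions. Against total RNA, 8.95% of all features were called lower and 6.68% higher in 80S monosomes, and 12.2% lower and 10.4% higher in polysomes, or 19.2%, 15.3%, 23.4% and 17.9% in that order with the block. Of 11 muscle genes tested, 7 fell in 80S monosomes against total RNA and 8 in polysomes, and 1 rose in polysomes, the giant-protein gene sls. With the block 8 were lower in each fraction and 1 was higher in each, Mhc in 80S monosomes and sls in polysomes. Of 9 glial genes 3 were lower in each fraction and 1 (repo) was higher in 80S monosomes, and with the block 4 and 6 were lower and repo was higher in both. Of 9 neuronal genes 5 rose from 80S monosomes to polysomes, with or without the block, where 7.87% of all features were higher, or 12.8% with the block. Against total RNA 1 neuronal gene was lower in 80S monosomes and 4 were higher in polysomes, or with the block 5 lower and 2 higher in 80S monosomes and 6 higher in polysomes. Against total RNA, 1 of 8 photoreceptor genes (ninaE) fell in both fractions and 1 (trp) rose in polysomes, and with the block trp was also higher in 80S monosomes and 3 genes were lower in polysomes. Of 8 fat body genes 1 rose in polysomes, and with the block 3 were lower in 80S monosomes and 6 in polysomes. Of 6 ovary and early embryo genes 1 fell in polysomes, and with the block 3 were lower there, while 2 were higher and 1 lower in 80S monosomes. Of 5 testis genes bam, Mst87F and Mst98Ca had too few counts to be tested, at 68.4, 5 and 16 in all 9 libraries together. The 2 tested, bol and fzo, rose in polysomes over 80S monosomes and over total RNA, with or without the block. With most of the list nearly absent and bol at means of 474 to 841 CPM, they give no measure of testis RNA. Between polysomes and 80S monosomes 4.31% of all features were lower without the block and 14.2% with it. There the block called lower 4 muscle, 2 glial, 2 photoreceptor, 3 fat body and 5 ovary and early embryo genes. Without it 1 muscle, 1 photoreceptor and 1 ovary and early embryo gene were lower. Higher in polysomes were 1 muscle gene, with or without the block, and 1 fat body gene with it. The summed glial markers ranged from 2297 to 2865 CPM in 80S monosomes, 2025 to 2582 CPM in polysomes and 3328 to 3632 CPM in total RNA, and the summed muscle markers from 12042 to 16952, 12918 to 16563 and 14036 to 18259 CPM. No listed marker of muscle, glia or neurons was at 0 in all libraries. The part of these cell types in the levels of the glycolytic genes was not tested.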

How the data were processed

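The authors froze flies, sieved the heads, separated the lysate on a sucrose gradient and kept a part of it for total RNA. They depleted ribosomal RNA, made stranded libraries, cleaned the single reads in Trimmomatic 0.33, aligned them to BDGP6.32 in STAR 2.7.10a and assigned them by strand to genes and, in another table, to transcripts in featureCounts 2.0.1. The authors deposited estimated counts without normalization, in which a read that maps to several places or lies over several features is split between them, so that paralogs and isoforms share counts.

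Counts were rounded to whole numbers and fitted in R 4.3.3 with edgeR 4.0.16 (filterByExpr, TMM, robust quasi-likelihood) over the 9 libraries, with Benjamini-Hochberg adjustment over 13076 features and a threshold of 0.01. Transcript use was tested with diffSpliceDGE. The test of single transcripts and the sums of transcripts by their end were added after the data had been seen. Standard errors come from the F statistic, and intervals for a value are at 95%. DESeq2 1.42.0 with a local fit, other scalings and filters, the 6 libraries compared, transcript counts summed per gene, the replicate block and each library left out were alternatives. The tests were tried on simulated counts. Symbols, positions and lengths are from the Ensembl BDGP6.54 annotation, of the same assembly, which matched 23851 of 23932 features.

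Deviations from the fraction means correlated in each of 9 pairs of libraries with the same replicate number (r 0.179 to 0.416). The numbers were therefore taken to pair the libraries. In 18 pairs with different numbers r was -0.329 to -0.00416. Centring on the fraction means pulls these values below 0 once those with the same number are above it, so they are not separate evidence. Members and lists were chosen with earlier results of these data known. Named genes are the 10 enzymes, up to 3 genes of each list with the smallest adjusted p past the threshold in a comparison, Pgi and Ldh, and the 5 genes most like the mean profile. Cell type markers besides those of muscle, glia and neurons (photoreceptor, fat body, ovary and testis) were counted as well. Sequences were not used here.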

Additional observations from a re-analysis of the deposited data

How the results depend on the processing

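The medians of the 10 genes against total RNA were below 0 under every alternative, and the counts of called genes moved. For 80S monosomes over total RNA, 3 genes were called lower by DESeq2 and with the 6 libraries compared alone, 5 with the replicate block, and 0 to 3 with a library left out, and the median was -0.22 with scaling on nuclear protein-coding genes and -0.28 to -0.20 with a library left out. For polysomes over total RNA, 2 were called lower by DESeq2, 0 with relative log expression size factors, 0 with nuclear protein-coding genes alone, 6 with the replicate block and 0 to 3 with a library left out. Transcript use called 1 gene for polysomes over total RNA with the block, and 0 to 1 in each comparison with total RNA with a library left out. The cause of these moves was not tested. The block changed no call between polysomes and 80S monosomes among the 10.

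Signs turned for values near 0 that were never called, nearly all in polysomes over 80S monosomes. There Pfk, Pgk and Pglym78 gave 0.033, 0.0057 and 0.038 with DESeq2. Pfk, Pgk, Pglym78 and PyK gave 0.046, 0.018, 0.050 and 0.0091 with relative log expression size factors, 0.063, 0.032, 0.064 and 0.025 with nuclear protein-coding genes, and 0.057, 0.031, 0.063 and 0.022 with the 6 libraries compared. With at least 1 CPM in 3 libraries Pfk gave 0.021 and Pglym78 0.024. Hex-A gave -0.0014 with no filter and Pglym78 0.00060 from the transcript table. With a library left out, the log2 fold changes ran from -0.044 to 0.070 for Hex-A, -0.053 to 0.055 for Pfk, -0.019 to 0.13 for Ald1, -0.33 to 0.022 for Gapdh2, -0.15 to 0.067 for Pgk, -0.091 to 0.15 for Pglym78, -0.011 to 0.25 for Eno and -0.11 to 0.082 for PyK. Against total RNA Pfk ran from -0.029 to 0.069 in 80S monosomes and from -0.0087 to 0.080 in polysomes with a library left out, and gave -0.0016 in polysomes with no filter. No scaling moved the median of all features by over 0.0956.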
